A study of Mus musculus with 2 samples.

Results

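The barcodes described here were those removed by an upper limit on mitochondrial RNA in a single-cell RNA-seq experiment on mouse bone. Members were barcodes with at least 200 detected genes in which over 20% of the UMIs (unique molecular identifiers, counts of captured transcripts) came from the 13 mt- genes of the mitochondrial genome. UMIs of both sequencing lanes were summed per barcode before the rule was applied. Of the 11056 barcodes called as cells, 10717 had at least 200 genes. Of these, 1144 were members (10.7%, exact 95% binomial interval 10.1 to 11.3) and 9573 were kept at or under the limit. Because mitochondrial UMIs chose the members, mitochondrial UMIs were left out of every total below, and a level is given as a percent of the remaining UMIs or as CPM, their count scaled to a total of 1000000.

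Mitochondrial genes are transcribed inside the organelle and their messenger RNA stays there, whereas most other messenger RNA is free in the cytosol or bound to ribosomes, part of it on the membrane of the endoplasmic reticulum (ER). A high mitochondrial percent is widely used to set barcodes aside in single-cell work, since a droplet with leaked cytosol keeps its organelles for longer. Cell types also differ in how much mitochondrial RNA they carry. Erythroid precursors build mitochondria for heme synthesis and later clear them together with their ER, nucleus and most RNA, while Lepr+ Cxcl12+ stromal cells of the marrow secrete niche factors and matrix proteins through the ER.

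The cells came from bone and marrow of the femur and tibia of 3 untreated male INK-ATTAC mice aged 24 months, pooled into 1 sample, so there is 1 biological sample and no group to compare it with. INK-ATTAC mice carry a caspase 8 that can be induced with a drug and is driven by the p16Ink4a promoter. Red cells were lysed, cells bearing CD5, B220, CD11b, Gr-1, 7-4 or Ter-119 were depleted, and cells negative for CD45 and for the dead-cell dye SYTOX were sorted, so mature erythroid and other blood cells, and dye-permeable cells, were reduced before capture. The 2 lanes held 116827845 and 120556381 UMIs and shared 10928 barcodes of the 10968 and 11016 in each. They are technical repeats of the same cells and were counted as 1 sample: for the members, squared differences between lanes summed over genes were 0.604 times the summed counts, below the 1 expected of independent counts. With 1 sample no test between conditions was possible, and the intervals below (exact, 95%) cover counting error only. Lepr and Cxcl12, which the study lists among the markers of its LeptinR+ marrow stromal cells, were present, but erythroid markers led in most kept barcodes.

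**Figure D1:**
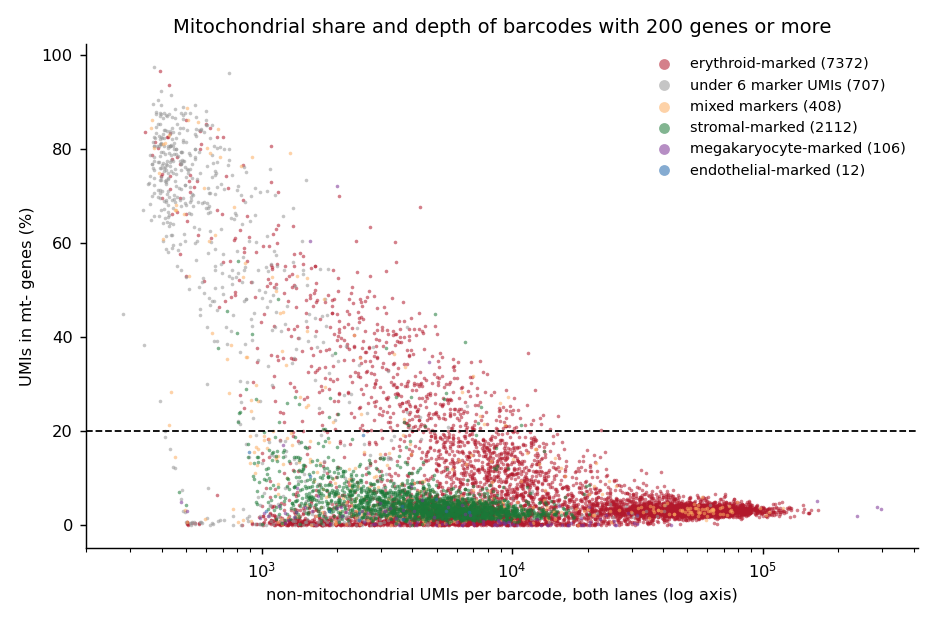
Each point is 1 of 10717 barcodes, with its mitochondrial percent of UMIs on the y axis, its non-mitochondrial UMIs on a log x axis and its colour set by the marker list that leads. The dashed line is the 20% limit; the 1144 barcodes above it lie mostly to the left, and few of them carry stromal markers.

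Members differed from kept barcodes more in the RNA they lacked than in the mitochondrial RNA they held. Their median was 1473.5 mitochondrial and 1346 other UMIs (both lanes summed), against 396 and 9334 in kept barcodes. These values belong to the rule and are a description: mitochondrial UMIs were 3.72 times higher and other UMIs 6.93-fold lower. A member had a median of 522.5 genes and a kept barcode 2424. The median mitochondrial percent of a member was 44.4 (quartiles 28.4 and 69.5) and the highest 97.4. Members held 19.04% of all mitochondrial UMIs but 1.21% of the others. Among barcodes with erythroid markers the medians were 1594 mitochondrial and 3049 other UMIs in members against 1053 and 24460 in kept barcodes, a 1.51-fold and an 8.02-fold difference. Among those with stromal markers they were 663.5 and 1831 against 185 and 4783.5, so there the mitochondrial difference (3.59-fold) was larger than the other (2.61-fold).

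The limit cut through a continuous range. The 35 kept barcodes between 19 and 20% had medians of 1188 mitochondrial and 4930 other UMIs and included 26 with erythroid markers. The 43 members between 20 and 21% had 1398 and 5559 and included 37. In each lane taken alone, 777 and 769 barcodes were members and 741 were members in both. Of the 1144, 385 fell under 200 genes in at least 1 lane, and the median difference in mitochondrial percent between lanes was 0.714 percentage points.

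Erythroid barcodes made up most members that could be assigned, and stromal barcodes were rare among them. A barcode was assigned to a lineage when at least 6 UMIs fell on 4 marker lists (stromal, erythroid, megakaryocyte and endothelial) and at least 80% of them on 1 list. Such a class is a range of marker share, not a cell type. By this rule 599 members were erythroid-marked (52.4%, 49.4 to 55.3, counting error only), 34 stromal-marked (2.97%, 2.07 to 4.13), 3 megakaryocyte-marked and 0 endothelial-marked, which allows a share of up to 0.262%. A further 70 were mixed (6.12%) and 438 had too few marker UMIs (38.3%). The erythroid share depended on the rule: it was 12.8% when it took both Klf1 and Car2 and no UMI of Lepr or Cxcl12, 23.6% after thinning to 500 UMIs and 84.9% among barcodes with at least 500 genes. Of the kept barcodes, 6773 were erythroid-marked (70.8%), 2078 stromal-marked (21.7%), 103 megakaryocyte-marked, 12 endothelial-marked, 338 mixed and 269 had too few. No doublet caller was run, and mixed barcodes stayed in a class of their own.

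Put the other way, the limit removed 34 of 2112 stromal-marked barcodes (1.61%, 1.12 to 2.24), 599 of 7372 erythroid-marked ones (8.13%, 7.51 to 8.77), 3 of 106 megakaryocyte-marked ones (2.83%), 0 of 12 endothelial-marked ones and 438 of 707 with too few marker UMIs (62.0%, 58.3 to 65.5). The intervals of the stromal and erythroid shares do not overlap. The same order held among barcodes with at least 500 non-mitochondrial UMIs in lane 1, thinned to 500 (0.994% and 7.31%). The stromal-marked members sat closer to the edge of their class: 10 of 34 had 80 to 90% of their marker UMIs on the stromal list, and 13 more members had 60 to 80%. Their median was 27.5 stromal, 2 erythroid, 0 megakaryocyte and 0 endothelial UMIs. Erythroid-marked members had a median of 22 erythroid and 0 stromal UMIs, with 81 of 599 at 80 to 90% and 40 members just below. The stromal list summed to 135 CPM in the erythroid-marked members and 45.8 CPM in kept erythroid-marked barcodes. How much of it was free RNA of the suspension was not tested.

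The classes changed with the mitochondrial percent. Barcodes of 20 to 30% mitochondrial RNA (323 in number) were 79.9% erythroid-marked, 7.43% stromal-marked and 6.19% with too few marker UMIs. Between 30 and 50% (328) these shares were 71.3, 2.74 and 20.4%. Between 50 and 70% (214) they were 33.2, 0.467 and 59.3%, and above 70% (279) they were 12.9, 0 and 80.3%. Non-mitochondrial UMIs fell over the same bands, with medians of 4236, 2241.5, 745.5 and 457. Depth and the class rule therefore cannot be told apart above 50%. Stromal-marked barcodes had their highest share, 39.1%, among the 1235 barcodes of 5 to 10%, all kept.

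Over all lineages, the lineage markers were carried by fewer members than kept barcodes, which were deeper, so shares are set beside those after thinning. Lepr (leptin receptor) and Cxcl12 (the chemokine that retains blood stem cells) were detected together in 43 members (3.76%) and in 25.8% of kept barcodes. Thinned to 500 UMIs of lane 1 alone, which 656 members and 9474 kept barcodes reached, the shares were 1.83 and 11.3%. In stromal-marked barcodes the pair was found in 20 of 34 members (58.8%) and 92.3% of kept barcodes, and after thinning in 37.5 and 51.04%, with only 24 members deep enough. Erythroid-marked barcodes, whose class rule limits stromal markers, carried it in 1.84% of members and 6.17% of kept ones at medians of 3049 and 24460 UMIs, and in 0 of 527 and 0 of 6751 after thinning. Singly, after thinning, Cxcl12 was in 4.93% (3.25 to 7.15) of erythroid-marked members and 2.04% (1.72 to 2.41) of kept ones, and Lepr in 1.14 and 0.43%, where the intervals overlap for Lepr and not for Cxcl12. Klf1, the transcription factor that drives the erythroid program, and Car2, the carbonic anhydrase of red cells, were detected together in 226 members (19.8%) and 58.9% of kept barcodes, or 3.20 and 6.84% after thinning. Within erythroid-marked barcodes the pair was in 34.4% of members and 79.8% of kept barcodes, or 3.98 and 9.42% thinned. Its share in stromal-marked barcodes, which should lack it, was 5.88% in members and 4.48% in kept ones at medians of 1831 and 4783.5 UMIs. Free RNA and doublets cannot be told apart there. Pf4, a platelet chemokine, was in 6.73% of members and 11.7% of kept barcodes, and in 2.13 and 1.87% after thinning, so no difference was detectable after thinning. Cdh5, the endothelial cadherin, was in 0 of 1144 members (which allows up to 0.262%) and 0.585% of kept barcodes. After thinning it was in 0 of 656, which allows up to 0.457%, and in 0.211%, so no difference was detectable after thinning.

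Over all lineages, Car2 after thinning was in 57.0% of members and 58.9% of kept barcodes, and the beta globin Hbb-bs in 63.9 and 64.0%. Within erythroid-marked barcodes both were less frequent in members: Car2 was in 63.6% (59.3 to 67.7) against 76.02%, and Hbb-bs in 66.2% (62.0 to 70.3) against 75.99%. Thinning equalised the UMIs read per barcode but left deep barcodes among the kept. Against kept erythroid-marked barcodes that were themselves of like depth, Car2 was higher in members (log2 ratio 0.44, 0.38 to 0.51). The 438 members with too few marker UMIs were not empty of lineage RNA: Hbb-bs was in 93.6% and Car2 in 60.3% of them at a median of 525.5 UMIs, and Cxcl12 in 23.5%. These shares cannot be read as expression, since Car2 was also in 59.6% and Hbb-bs in 92.0% of kept stromal-marked barcodes. As levels over all members, Car2 was 2198 CPM against 4030 in kept barcodes (log2 ratio -0.87), Klf1 160 against 269 (-0.75), Cxcl12 787 against 1158 (-0.56), Lepr 74.6 against 87.1 (-0.22) and Pf4 87.4 against 347 (-1.99).

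Over all members against all kept barcodes, 11835 non-mitochondrial genes had at least 100 UMIs. Of these 24.4% were over 2-fold higher and 7.36% over 2-fold lower in members, with no test. Many of the higher genes rested on few member UMIs: among the 5932 genes for which at least 20 UMIs were expected in the members, the shares were 17.9 and 8.26%. The median of all these genes stood at 0.20 (log2). Once this median was set to 0, the part of all calls that were higher fell from 68.4 to 43.7%. Among the 11835 genes, whose own median was 0.40, it fell from 76.8 to 39.0% in the same way. Directions below are therefore given beside the median of all genes. Of the lists, 7 of 8 measured nuclear and rRNA-like RNAs were over 2-fold higher (median 2.20), and 53 of 80 cytosolic ribosomal protein genes (-1.15), 38 of 78 nuclear genes of the respiratory chain (-0.96), 9 of 22 housekeeping genes (-0.87) and 3 of 4 globins (-1.52) were over 2-fold lower. Of 28 secreted stromal proteins 3 were lower and none higher (-0.49). The 10 measured stromal markers had a median of -0.34 with none past 2-fold, the 15 erythroid markers 0.17 with 1 higher and 1 lower, and the 3 megakaryocyte markers -1.20 with 2 lower. Since the lineages were mixed in other proportions in members, the remaining comparisons were made within a lineage.

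In erythroid-marked barcodes, members carried far more nuclear and rRNA-like RNA as a share of UMIs than all kept barcodes, less of most short, abundant cytosolic messengers, and more of long transcripts. Most of the nuclear and rRNA-like excess was shared by kept barcodes of like depth (list median 0.07), which are set out below. The unfiltered comparison had 9925 genes, of which 35.2% were over 2-fold higher and 6.84% lower. With at least 20 UMIs expected in the members it had 4993 genes, of which 22.7% were higher and 10.1% lower, around an all-gene median of 0.24. Set to that median, the part of calls that were higher fell from 69.2 to 46.9%, and without the filter, with the 9925 genes set to their own median of 0.63, from 83.7 to 37.8%. List counts in this lineage are over the filtered genes unless stated. Without the filter, 7 of 7 measured stromal markers were over 2-fold higher in members (median 1.63), but only 1 had 20 expected UMIs. The class rule limits these markers, so their levels are a description. Of 22 secreted stromal proteins 15 were higher and 1 lower (1.38). Markers of other lineages went both ways: 2 of 3 megakaryocyte markers were higher (1.91), 3 of 5 immune markers were higher and 1 lower (1.23), and the 1 measured fibroblast marker was lower. Cxcl12 stood at 88.2 against 28.4 CPM (1.63), and at 0.37 against kept barcodes of like depth, a comparison described further on. The part of stromal RNA in the results was not tested.

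Gm42418, a long noncoding RNA gene that lies within the ribosomal RNA repeat sequence of the assembly and collects rRNA-like reads, was the leading abundant transcript. It made up 15.1% of non-mitochondrial UMIs in the members and 2.09% in kept barcodes, or 15.1 and 15.1% against 2.08 and 2.10% in the 2 lanes, a log2 ratio of 2.85 (2.84 to 2.86). Both lanes of the members were above both lanes of the kept barcodes, and 599 of 599 members carried it. The neighbouring AY036118 (2.55) and Gm26917 (2.71) moved with it. In GENCODE on the mm10 build, Gm42418 is a 1831-base single transcript at chr17:39846958-39848788 on the plus strand, and AY036118 lies inside it at chr17:39847113-39848035 on the minus strand, so its 923 bases are the reverse complement of bases 156 to 1078 of Gm42418. Both are shown for the last 30 bases of that overlap (chr17:39848006-39848035), because they are opposite strands of 1 stretch. Whether reads of one could be counted for the other was not tested.
Gm42418, plus strand: agtaagtgcgggccataagcttgcgttgat
AY036118, minus strand: atcaacgcaagcttatggcccgcacttact

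Lars2, the mitochondrial leucyl-tRNA synthetase (chr9:123366927-123462666), whose 3′ part is known to collect rRNA-like reads as well, had a log2 ratio of 3.34. Malat1, a nuclear noncoding RNA (chr19:5795690-5802672), made up 1.82% against 0.459% (1.99, with 1.98 and 1.99 in the lanes), and Neat1, the scaffold of paraspeckles, stood at 1.84. Kcnq1ot1, the imprinted antisense RNA that silences its neighbours (chr7:143203458-143296549), was 1074 against 224 CPM (2.26, 2.17 to 2.34). All 7 measured members of the list were over 2-fold higher (median 2.55). Kcnq1ot1 lies antisense within Kcnq1, and whether the counting used strand is not given in the sources used here, so unspliced reads of Kcnq1 cannot be told apart from it.

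The erythroid-marked members held less of the translation machinery and of red-cell product. Cytosolic ribosomal proteins summed to 15.6% of UMIs against 33.5%, with 54 of 80 over 2-fold lower and none higher (median -1.21), among them Rpl9 (-1.94), Rpl10 (-1.85) and Rps15a (-1.79). The 4 globins had a median of -1.60 with 3 past 2-fold: Hbb-bt -1.77, Hbb-bs -1.67 (3630 against 11512 CPM), Hba-a1 -1.54 and Hba-a2 -0.92. Nuclear genes of the respiratory chain summed to 1.75% against 3.45% (40 of 78 lower, none higher, median -1.03), a difference not seen at like depth, where the sum was 1.75 against 1.79%. Of 22 housekeeping genes 10 were lower and none higher (-0.83). Fth1, the ferritin heavy chain that stores iron, stood at 1977 against 7062 CPM (-1.84), Ftl1 at -1.43, the glycolytic enzyme Gapdh at -1.49 and the elongation factor Eef1a1 at -1.21. At like depth Fth1 (0.19) and Ftl1 (0.38) turned direction, and Gapdh stood at -0.33 and Eef1a1 at -0.42.

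The 15 erythroid markers are the list that set the class, so their levels belong to the rule and are a description, with a median of 0.27, 1 over 2-fold higher and 1 lower. Ank1, the ankyrin of the red-cell membrane skeleton, was 429 against 142 CPM (1.60, but 0.36 at like depth), Ermap stood at 1.00, the erythropoietin receptor Epor at 0.78, the anion exchanger Slc4a1 at 0.70 and Alas2, the first enzyme of heme synthesis, at 0.33. Gata1 (-0.36), Klf1 (-0.72) and Car2 (2467 against 4332 CPM, -0.81) stood below 0, and Car1 was lower at -1.19 (0.37 at like depth). Of 15 genes of mitosis measured, 4 were over 2-fold higher, the proliferation antigen Mki67 (3304 against 1251 CPM, 1.40), Cenpe (1.21), Top2a (1.09) and Kif11 (1.05), and 1 was lower, the cyclin Ccnb2 (-1.34). That is near the shares of all genes, and at like depth none of the 15 was past 2-fold (Mki67 -0.0165, Cenpe -0.0924, Ccnb2 -0.12). Of 41 histone genes 6 were higher and 1 lower (0.29).

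Against all kept barcodes, stress and death lists had at most 3 genes past 2-fold each. Of 10 heat shock genes 3 were over 2-fold higher around a median of 0.00: Hspa1a (1.96), Hspa1b (1.96) and Hsph1 (1.10). A single barcode gave 29.5% of the members' Hspa1a UMIs and 23.9% of those of Hspa1b. Of 8 immediate-early genes 1 was higher and none lower (0.62), with Jund at 0.61. Of 11 apoptosis genes 1 was higher and 1 lower (0.24). The lower one was Bax, the pore former of mitochondrial apoptosis (-1.58, but 0.30 against kept barcodes of like depth), while the p53 ligase Mdm2 stood at 0.97. Of 6 genes of mitochondrial transcription and stress 1 was higher (0.10). At like depth 2 of 10 apoptosis genes (median 0.17) and 1 of 10 immediate-early genes (-0.30) were over 2-fold lower and none higher. There 1.61% of all genes were lower, and none of 10 heat shock genes was past 2-fold. The genes picked by size alone, the 10 largest each way, rested on 11 to 56 member UMIs on the higher side (B3galt2 3.896, Elmo3 3.896, Ecm2 3.38). On the lower side were Tstd3 (-2.73, 4 member UMIs), Cda (-2.19, but 0.93 at like depth), the matrix protein Spp1 (-2.19, but 0.0184 at like depth), Mlx (-2.15) and the fatty acid carrier Fabp5 (-2.01, but 0.88 at like depth).

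**Figure D2:**
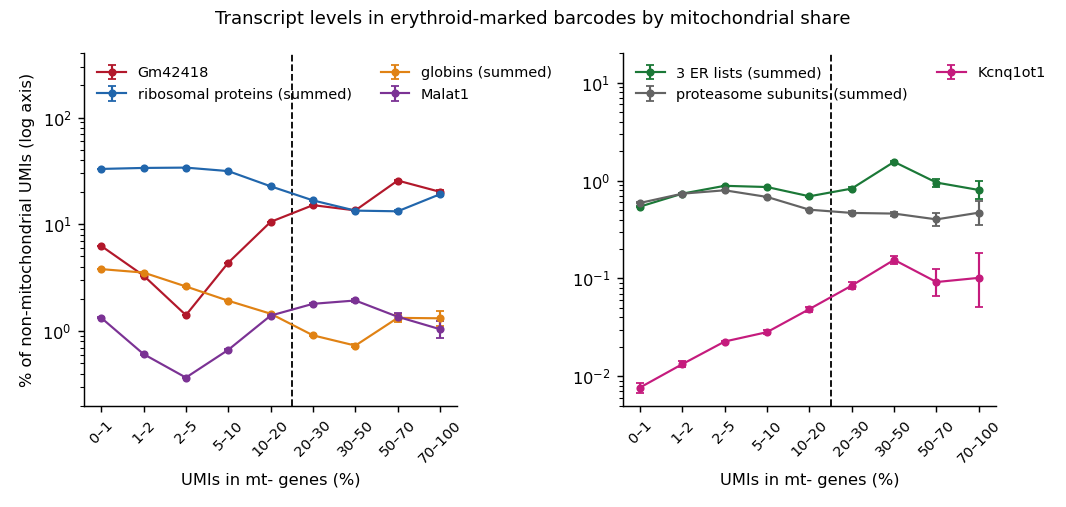
Percent of non-mitochondrial UMIs (log y axis) in erythroid-marked barcodes for 9 bands of mitochondrial percent (x axis), with 95% Poisson intervals; bands right of the dashed line are members. Gm42418 falls to 1.41% at 2 to 5% and rises to 15.1% at 20 to 30%, ribosomal proteins and globins decline from 2 to 5% to 30 to 50%, and Kcnq1ot1 and the ER lists peak at 30 to 50%.

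These levels did not start at the limit. In erythroid-marked barcodes Gm42418 made up 6.27% of UMIs below 1% mitochondrial RNA (1021 barcodes), 1.41% at 2 to 5% (3795), 10.5% at 10 to 20% (567), 15.1% at 20 to 30% (258) and 13.5% at 30 to 50% (234). Ribosomal proteins went from 33.0% below 1% and 34.0% at 2 to 5% to 22.7% at 10 to 20%, 16.8% at 20 to 30% and 13.4% at 30 to 50%. Globins fell from 3.81% below 1% to 1.45% at 10 to 20% and 0.731% at 30 to 50%. Malat1 was 1.33% below 1%, 0.367% at 2 to 5% and 1.93% at 30 to 50%. Kcnq1ot1 rose over the whole range up to 50%, from 0.00767% below 1% to 0.0226% at 2 to 5%, 0.0486% at 10 to 20%, 0.0845% at 20 to 30% and 0.155% at 30 to 50%. The bands above 50% held 107 erythroid-marked barcodes.

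Transcript length went with the ratio. In the erythroid comparison the genes over 2-fold higher had a median longest transcript of 5493.5 bases, the lower ones 1315 and all genes 3254. By length, the median log2 ratio was -0.95 up to 1000 bases (327 genes), -0.58 up to 2000 (915), -0.04 up to 3000 (959), 0.39 up to 4000 (919), 0.79 up to 6000 (1082) and 1.24 above (718). Of the longest group 67.0% were over 2-fold higher and of the shortest 46.5% were over 2-fold lower. A run of at least 15 A in the transcript, at which an oligo-dT primer can start inside a message, was present in 16.5% of the higher, 2.98% of the lower and 9.76% of all genes, and long transcripts have more room for one. Genes are not independent replicates, so these are descriptions. The same order of lengths appeared between kept erythroid-marked barcodes of low depth and deeper kept ones, from -0.88 for the shortest to 0.81 for the longest, so it was not particular to barcodes over the limit. In stromal-marked barcodes the medians were -0.15, -0.26, -0.40, -0.26, -0.24 and -0.12, without this order. These rest on 34 members and 26 to 56 genes per bin. Depth there differed 2.61-fold between kept barcodes and members, against 8.02-fold in erythroid-marked barcodes. The difference between the lineages was not tested.

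**Figure D3:**
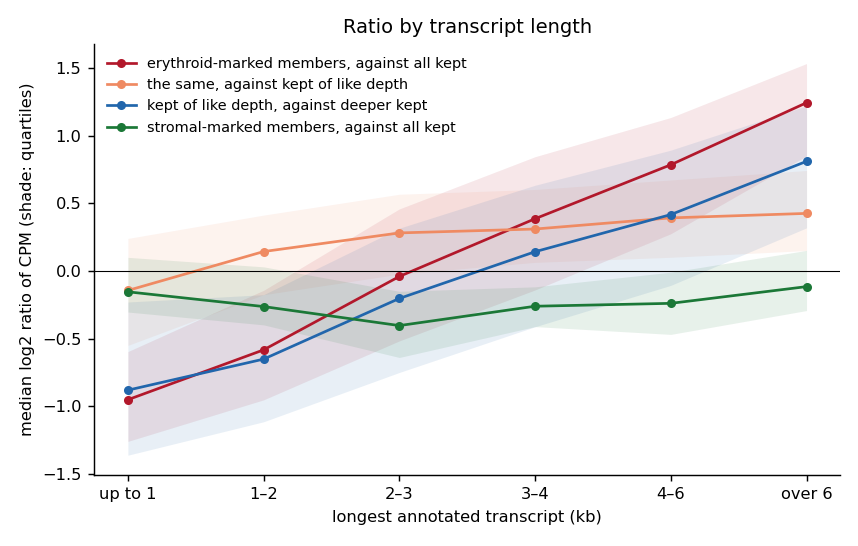
Median log2 ratio of levels (y axis) in bins of longest transcript length in kilobases (x axis) for 4 comparisons, with shading from the first to the last quartile of genes. Against all kept erythroid-marked barcodes the median climbs from -0.95 to 1.24; against those of like depth it climbs from -0.14 to 0.43.

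Because members were shallow, they were set beside kept erythroid-marked barcodes of like depth, those between 854 and 7021 non-mitochondrial UMIs (the range from the 10th to the 90th percentile of the members). There were 1792 of them with a median of 4397 UMIs, and 4969 deeper ones. All 599 members entered, 479 of them inside the range. Most had little mitochondrial RNA: 1010 lay at 0 to 2%, 553 at 2 to 10% and 229 at 10 to 20%, so the 229 are given beside the whole. Both comparisons use the same members. Of 5544 genes with 20 expected UMIs, 7.27% were over 2-fold higher and 1.61% lower in members than in kept barcodes of like depth (all-gene median 0.30). Against the 229, 5.38% of 5932 genes were higher and 0.135% lower (0.16). Against the 553 the shares were 8.55 and 0.692%, and against the 1010 they were 14.1 and 2.72%. All are below the 22.7 and 10.1% against all kept barcodes. The gene filter takes the level of both groups together, so with a small kept group it lets in more genes that are high in members than genes that are low. Split by their own mitochondrial percent, the 492 members of 20 to 50% gave 7.5% higher and 1.55% lower. The 107 above 50% were shallow, with 293 genes measured, and gave 2.05% higher and 17.4% lower.

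At like depth most of the members' rRNA-like excess was shared. Gm42418 made up 12.7% in kept barcodes of like depth (log2 ratio 0.25) and 14.2% in the 229, and per barcode the members held 274 UMIs of it against 265 (mean of lanes). Malat1 made up 2.02% in kept barcodes of like depth (-0.15), Lars2 stood at 0.49, AY036118 at 0.07, Neat1 at -0.58 (0.81 against the 229) and Gm26917 at -1.21 (0.16 against the 229). Respiratory chain genes (78 measured, median 0.00, 3 higher and 1 lower) and housekeeping genes (21 measured, 0.00, none past 2-fold) stood at or below the all-gene median, and Fth1 at 0.19, Mki67 at -0.02 and Hspa1b at 0.14. Ribosomal proteins stayed low as a group: they summed to 24.8% in kept barcodes of like depth (-0.67, or -0.44 against the 229), with 9 of 80 over 2-fold lower and none higher (median -0.52).

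Globins and histones were lower in members at like depth. All 4 globins were over 2-fold lower (median -1.25): Hbb-bs 3630 against 11843 CPM (-1.71), Hba-a2 -1.26, Hba-a1 -1.24 and Hbb-bt -1.10. Their sum stood at -1.43, at -0.79 against the 229 and at -1.85 against the 1010 of lowest mitochondrial percent. Of 53 histone genes 11 were lower and none higher (-0.78), with the sum at -0.82 and at -0.60 against the 229. Among the other genes over 2-fold lower, named after their values were seen and with no value computed against the 229, were the nuclear exporter Xpo7 (-2.75), Tcp11l2 (-3.12), Slfn14 (-2.72), Ypel3 (-2.37), Bpgm, the bisphosphoglycerate mutase (35.8 against 164 CPM, -2.20), Tmcc2 (145 against 645 CPM, -2.15) and Tent5c (-1.86). The interferon-induced Rsad2 (-2.49) and Isg15 (-1.76) were lower too. Of the 15 erythroid markers, which set the class, the Rhesus proteins Rhd (629 against 170 CPM, 1.89) and Rhag (439 against 203, 1.12) were over 2-fold higher and Trim10 was lower (-1.23), with a median of 0.36. The stem cell factor receptor Kit (0.79) and Car2 (0.44) were above 0 and Klf1 (-0.20) below.

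What stood out at like depth was RNA of the secretory pathway. Kept barcodes of like depth were not matched to members for stage of erythroid maturation, and its part in this comparison was not tested. Messengers for proteins that enter the ER are translated on its membrane. The 3 groups of such genes used here were listed after these values were seen, so their counts are a description: the translocon, signal peptidase and oligosaccharyltransferase, the folding and quality-control proteins, and the cargo receptors between ER and Golgi. Of 59 genes measured, 39 were over 2-fold higher in members and none lower, where 7.27% of all genes were higher and 1.61% lower. Their median was 1.27 beside 0.30 for all genes. By group, 14 of 26 (median 1.15), 15 of 21 (1.27) and 10 of 12 (1.51) were higher. Summed, they made up 1.06% in members and 0.496% in kept barcodes of like depth. Against the 229 barcodes of 10 to 20%, 25 of 65 were higher, where 5.38% of all genes were. The median was 0.86, and the sum in the 229 was 0.598%. Against the 553 it was 43 of 64 (1.23, all genes 8.55%) and against the 1010 it was 45 of 60 (1.44, all genes 14.1%). None of these comparisons had an ER gene over 2-fold lower. These bands are parts of the kept group with which the lists were chosen, and the members are the same. Their direction was therefore partly set beforehand.

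Named examples span the route from translocation to export. Hspa5, the ER chaperone BiP, stood at 988 against 399 CPM (1.31), Hsp90b1 at 1.59, the lectin chaperones Canx at 1.52 and Calr at 1.15, the disulfide isomerases Pdia3 at 1.59 and Pdia6 at 184 against 37.6 CPM (2.29). Stt3a, the catalytic subunit that transfers glycans, stood at 2.31 and Mogs, which trims them, was 80.4 against 20.1 CPM. The signal peptidase subunits Sec11a and Spcs2 stood at 1.98 and 1.93, and the translocon-associated Ssr2 and Ssr1 at 1.80 and 1.66. The cargo receptors Tmed9 (361 against 69.8 CPM, 2.37), Lman1 (221 against 45.3, 2.29), Bcap31 (166 against 25.4, 2.71), Bcap29 (2.12) and Tmed5 (1.93) were higher too. A few small membrane subunits were not: Sec61b stood at -0.46, Sec61g at -0.52, Ost4 at -0.39 and Tmem258 at 0.00. Lists of large complexes outside the ER did not share the excess. None of 8 chaperonin genes (median 0.34), of 34 proteasome genes (0.25) and of 72 mitochondrial ribosomal protein genes (0.19) was past 2-fold.

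**Figure D4:**
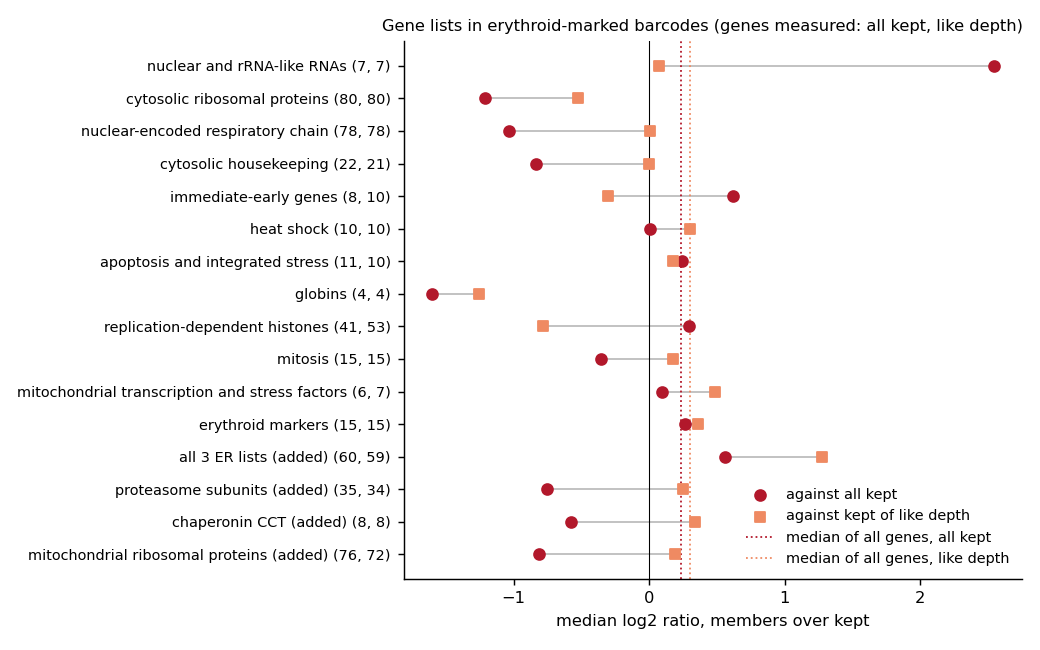
Median log2 ratio (x axis) of each gene list (y axis) in erythroid-marked members against all kept erythroid-marked barcodes and against those of like depth. The nuclear and rRNA-like list moves from 2.55 to 0.07 and ribosomal proteins from -1.21 to -0.52, while the 3 ER lists as 1 group move from 0.56 to 1.27, beside all-gene medians of 0.24 and 0.30.

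Against all kept erythroid-marked barcodes the ER genes did not stand apart by count: 16 of 60 were higher and 4 lower, where 22.7 and 10.1% of all genes were, with a median of 0.56 beside 0.24, and the sum was 1.06 against 0.856%. The folding proteins gave most of this (8 of 21 higher, none lower, median 0.92, sum 0.504 against 0.310%). The translocon group had 5 of 26 higher and 4 lower (0.21) and summed to less in members, at 0.391 against 0.427% (-0.13). The cargo receptors had 3 of 13 higher (0.20), with sums of 0.170 against 0.120%. Proteasome genes there had 11 of 35 lower and none higher (-0.75). The kept barcodes of like depth themselves lay below the deeper kept ones in ER genes, with 28 of 67 over 2-fold lower, 1 higher and a median of -0.84, in a comparison in which 13.3% of 7526 genes were lower and 15.1% higher. Hspa5 was 988 CPM in members, 399 in kept barcodes of like depth and 392 in all kept ones.

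The ER excess was uneven among the members. Of 599 erythroid-marked members, 93 (15.5%) had over 2% of their UMIs on the ER genes, against 11 of 1792 kept barcodes of like depth (0.614%), 4 of the 229 (1.75%) and 14 of 4969 deeper ones (0.282%). They were 22 of 258 members at 20 to 30% (8.53%), 62 of 234 at 30 to 50% (26.5%) and 9 of 107 above 50% (8.41%). The medians over barcodes were closer than the sums, at 0.640% in members, 0.457% in kept barcodes of like depth and 0.513% in the 229, and the deeper kept barcodes had a higher median, 0.813%. The 93 were picked by this measure, so the rest describes them. They had a Gm42418 level of 29591 CPM against 172787 in the other 506, Kcnq1ot1 of 1844 against 936, Car2 of 2872 against 2394, Mki67 of 1783 against 3577 and Malat1 of 16106 against 18540. The other erythroid genes compared were lower in the 93: Klf1 at 112 against 187 CPM, Ank1 at 333 against 446 and Hbb-bs at 2089 against 3906. Their median depth was 3367 UMIs against 2973.5 and their median mitochondrial percent 37.7 against 31.2. Of the 5 markers listed for plasma cells, which are rich in ER, Igkc stood at 520 in the 93 against 596 CPM in the others, Jchain at 21.2 against 24.4, Sdc1 at 9.07 against 2.71 and Mzb1 at 6.05 against 2.17, while Derl3 had 0 in both. Sdc1 was found in 3.23% and Mzb1 in 1.08% of the 93. Their part in the result was not tested.

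Kcnq1ot1 was the 1 RNA of the nuclear and rRNA-like list that was over 2-fold higher at like depth, where Gm26917 was over 2-fold lower and Neat1 lower by less. It stood at 1074 CPM in members and 177 in kept barcodes of like depth (2.60, 2.46 to 2.74), and was found in 312 of 599 members with at most 2.52% of its UMIs in 1 barcode. Against the 229 the log2 ratio was 1.38, and against the 1010 of lowest mitochondrial percent 3.32. Its transcript holds a run of 41 A. Also among the largest at like depth, again named after their values were seen, were the phosphatase Ptpre (2.94), Phykpl (2.82), Rbm4b (2.80), Pde7a (2.38), the lamin protease Zmpste24 (2.29), Atp6ap2 (2.28), the desaturase Scd2 (2.27), the interferon receptor Ifngr1 (1.92) and the antigen transporter Tap2 (1.89).

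The 34 stromal-marked members gave a much thinner comparison. Of 7403 genes 11.7% were over 2-fold higher and 17.3% lower, but 7157 of them had under 20 expected UMIs. Of the remaining 246 genes 1.63% were higher and 2.85% lower, around an all-gene median of -0.23. The lineage markers, which set the class, are a description: 8 of 8 measured stood below 0 with none past 2-fold, a median of -0.47 and a range from Kitl, the stem cell factor (-0.77), through Lepr (-0.56), Cxcl12 (1.53 against 2.20%, -0.52), Pdgfrb (-0.50), Esm1 (-0.44) and Adipoq (-0.18) to the transcription factors Foxc1 and Ebf3 (both -0.04). That is close to the all-gene median.

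Gm42418 made up 17.6% of UMIs in stromal-marked members and 9.75% in kept ones (0.85, 0.82 to 0.88; 0.85 and 0.84 in the lanes), Gm26917 stood at 1.09, Lars2 at 0.91 with 38.0% of its UMIs from 1 barcode, Kcnq1ot1 at 0.64 and Malat1 at 8.40 against 7.65% (0.14). Ribosomal proteins stood at 6.76 against 7.15% with none of 74 past 2-fold (median -0.14). Against 1418 kept stromal-marked barcodes of like depth the direction turned, at 6.76 against 6.19% (log2 ratio of sums 0.13, 0.08 to 0.18). For ribosomal proteins the difference from erythroid-marked barcodes was not tested. Respiratory chain genes (4 measured, -0.21) and housekeeping genes (11, -0.52) were near or below the all-gene median. Of 24 secreted proteins (-0.45) the proteoglycan Dcn was higher (1.78) and the chemokine Cxcl14 lower (-1.64). For Dcn, 47.6% of the UMIs came from 1 barcode, and it reversed at the 30% limit (-0.88) and with the gene pairs (-0.31). Without the filter, 5 of 7 fibroblast markers were over 2-fold higher and none lower (median 2.13), but 0 of them had 20 expected UMIs. Gsn (2.73) rested on 1 barcode for 92.1% of its UMIs. Lower genes included the transferrin Trf (-1.26), Mgp (-1.20), the stress gene Nupr1 (-1.45), the lysosomal Ctsb (-1.27) and Lamp1 (-1.12). Globins summed to 0.286 against 0.160%. ER genes summed to 0.921 against 1.39% (-0.59), with 6 measured and none past 2-fold, which is no excess, and the difference from erythroid-marked barcodes was not tested.

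Shares among the mitochondrial genes are independent of the limit on their sum only in part and are given as a description. Of mitochondrial UMIs in erythroid-marked barcodes, mt-Co1, a subunit of cytochrome oxidase, gave 13.3% in members and 16.1% in kept ones (log2 ratio of shares -0.28), mt-Atp6 of the ATP synthase 22.9 and 21.8%, mt-Co3 21.6 and 20.5%, mt-Cytb 7.41 and 7.65% and mt-Nd1 5.14 and 5.06%. In stromal-marked barcodes mt-Cytb, the cytochrome b of complex III, gave 8.86 and 14.1% (-0.67) and mt-Co1 12.98 and 10.2% (0.35), while mt-Co3 gave 19.8 and 16.9% (0.23) and mt-Nd4 stood at -0.35.

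Some genes with a high ratio in members rested largely on single barcodes. Over all members, the neutrophil granule enzyme Mpo (4.17) had 261.5 UMIs in 9 barcodes with 88.5% in 1, Elane (2.94) 89.1% in 1, Prtn3 (2.73) 76.0% in 1 and the pericyte gene Rgs5 (4.31) 65.7% in 1 of 6. Without the barcodes richest in Mpo and Rgs5, Elane stood at -0.25, Prtn3 at 0.66, Mpo at 1.05 and Rgs5 at 2.78.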

How the data were processed

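Counts were the authors' filtered gene-by-barcode matrices, deposited as raw UMI counts per lane from Cell Ranger (software version 3.0.2 in the file headers, while the study's methods name a later one; build mm10 in the submitters' processing notes, which do not give a role or an order). Both lanes were read with Python 3.11.15, numpy 2.4.6, pandas 2.3.3 and scipy 1.17.1 and summed per barcode. Members, kept barcodes and classes were set on these sums, and levels are the mean of the 2 lanes. Ratios are of summed CPM without mt- UMIs, with exact conditional binomial intervals. Shares have Clopper-Pearson intervals, and a count of 0 allows up to 3 counts. Genes needed 100 UMIs in both groups together or, where stated, 20 expected in the members, and "called" is past 2-fold. Named genes were those of the lists and the 10 largest ratios each way, and others are said to be chosen after their values were seen. Thinning drew 500 non-mitochondrial UMIs per barcode without replacement from lane 1 alone, and barcodes with fewer there were left out. Annotation was GENCODE on GRCm38 (32235 of 32285 genes matched). The gene steps were tested on simulated data. Alternatives covered the limit, gene minimum, lane, class rule, centring, gene filter and depth. The members and lists were chosen with earlier results of these data known. No doublet caller was run and no protein features were computed.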

Additional observations from a re-analysis of the deposited data

Results flagged for a closer look

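Globins had opposite directions in the lineages: the log2 ratio of their summed level, members over kept barcodes, was -1.60 in erythroid-marked barcodes and 0.84 in stromal-marked ones. The difference was not tested, since there is 1 sample, and free RNA and doublets cannot be told apart in the stromal-marked barcodes.

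The share of mt-Co1 among mitochondrial UMIs also went opposite ways, with a log2 ratio of -0.28 in erythroid-marked and 0.35 in stromal-marked barcodes. This difference was not tested either.

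The 339 barcodes with under 200 genes lay outside the comparisons above (they entered only the alternative with no minimum of genes), and 338 of them had over 20% mitochondrial RNA (median 78.7%, median 327 other UMIs). They held Car2 at 2725 CPM (2311 to 3193) and Gm42418 at 276403 CPM, above the limit that a count of 0 allows (53.4 CPM). Ribosomal proteins made up 24.0% of their UMIs and Malat1 0.328%.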

How the results depend on the processing

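No paired analysis was possible because there is 1 group and its 2 lanes hold the same cells. The share of barcodes over the limit, 10.7%, was 18.0% at a 10% limit, 7.66% at 30%, 5.99% with at least 500 genes, 13.4% with no minimum of genes and 7.46 to 7.56% in a lane alone. Stromal-marked barcodes over the limit, 1.61%, became 7.29% at the 10% limit, 0.473% at 30%, 0.828% with markers taken as the gene pairs alone and 0.994% thinned. Their part of the members, 2.97%, became 8, 1.22, 4.25 to 4.42 (1 lane) and 0.524% (pairs). Erythroid-marked barcodes over the limit, 8.13%, became 15.8, 4.63, 7.04 (500 genes), 6.56 to 6.65 (1 lane), 9.83 (at least 3 marker UMIs), 5.24 (pairs) and 7.31% (thinned). Their part of the members, 52.4%, became 60.6, 41.5, 84.9 (500 genes), 41.4 (no minimum), 58.7 to 58.8 (1 lane), 55.9 (60% marker share), 65.9 (3 UMIs), 12.8 (pairs) and 23.6% (thinned), so it depended strongly on the class rule.

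For all members, 2882 higher and 871 lower genes became 1201 and 1877 when centred on the median, 561 and 2367 as means of barcode CPM, 360 and 1372 at like depth and 1061 and 490 with 20 expected UMIs. Higher genes were 4723 with at least 20 UMIs, and lower genes 577 at the 10% limit and 502 without globins and rRNA-like genes in the totals. One lane gave 3274 to 3278 and 863 to 886. For stromal-marked barcodes, 866 and 1281 became 111 and 697 (10% limit), 4504 and 433 (30%), 1204 to 1355 and 787 to 821 (1 lane), 136 and 730 (like depth) and 4 and 7 (20 expected). Higher genes were also 565 (60% marker share) and 3747 (20 UMIs), and lower ones 340 (pairs) and 1975 (means of barcodes). For erythroid-marked barcodes, 3494 and 679 became 1159 and 1904 when centred and 365 and 84 at like depth. Higher genes were 1911 (means of barcodes), 5341 (20 UMIs) and 1131 (20 expected), and lower ones 404 without globins and rRNA-like genes. One lane gave 3675 to 3685 and 659 to 670.

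Of 5528 values of named genes under these alternatives, 37 reversed, and the cause was not tested. A reversal was counted only where the main ratio was past 2-fold. Changes of sign in smaller ratios, such as that of Car2 at like depth in erythroid-marked barcodes, were not counted. At like depth, in all members, these were Bax (0.0179), Car1 (0.83), Ccnb2 (0.44), Fabp5 (1.09), Fth1 (0.12), Gapdh (0.0712), Pfn1 (0.0845), Ppia (0.29), S100a9 (0.0261), Gm26917 (-0.53), Malat1 (-1.25) and Neat1 (-0.998), and in erythroid-marked ones Bax (0.30), Car1 (0.37), Cda (0.93), Eno1 (0.34), Fabp5 (0.88), Fth1 (0.19), Ftl1 (0.38), Ighg2c (0.17), Plek2 (0.83), Ppia (0.44), Spp1 (0.0184), Cenpe (-0.0924), Gm26917 (-1.21), Malat1 (-0.15), Mki67 (-0.0165) and Neat1 (-0.58). As means of barcode CPM over all members, Malat1 (-0.71) and Neat1 (-0.49) reversed. In stromal-marked members Dcn and Gsn reversed at the 30% limit (-0.88 and -2.42) and with the pairs (-0.31 and -1.71), and Gsn without its richest barcode (-0.81). Spp1 reversed in erythroid barcodes with the pairs (1.46), and Elane without the barcodes richest in Mpo and Rgs5 (-0.25). The gene filter of 20 expected UMIs, the split of like depth by mitochondrial percent, the single-barcode exclusions and the ER lists were chosen after seeing the data. The stromal-marked comparison is limited by its 34 members, and the bands above 50% by their depth.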
